A study of Homo sapiens with 6 samples.

Results

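The 10 mRNAs described here encode PROSER1, the O-GlcNAc transferase OGT, the methylcytosine dioxygenases TET1, TET2 and TET3, the thymine DNA glycosylase TDG, the DNA methyltransferases DNMT1, DNMT3A and DNMT3B, and UHRF1. They were taken by gene name from a count table of 60655 genes, where each name matched 1 row. The set was drawn up with results of these libraries known, because *PROSER1* stood near the top of the comparison between the 2 antibodies. The values of that comparison are therefore given as a description. The data came from WaGa, an established Merkel cell carcinoma (MCC) line that carries Merkel cell polyomavirus. The cells were unmodified (genotype WT), received no treatment, and grew in RPMI medium with fetal bovine serum. In RNA immunoprecipitation followed by sequencing (RIP-seq), 5 μg of an antibody to IGF2BP3, an RNA-binding protein labelled IMP3 in the sample names, was compared with the same amount of control IgG. Each antibody had 3 libraries, numbered 1 to 3 and called independent by the submitters, with paired reads of 150 bp. The model is 1 cell line, and no library of the RNA before the IP was analysed here, so a value is the amount of an RNA recovered with an antibody and not its expression. In bulk lysates, a change in the number of cells that hold an RNA and a change in RNA per cell cannot be told apart.

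Methylation of cytosine in CpG dinucleotides is written by DNMT3A and DNMT3B and copied after replication by DNMT1, which UHRF1 brings to hemimethylated DNA. The TET enzymes oxidize methylcytosine, and TDG excises the more oxidized bases so that base excision repair can restore cytosine. OGT attaches N-acetylglucosamine to proteins and binds TET proteins. PROSER1, a protein rich in proline and serine, has been described as an adaptor between OGT and TET2 and as a partner of the MLL3/MLL4 complexes that contain the histone demethylase UTX.

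The libraries held between 9758759 and 14886414 counts. Replicate 1 stood apart in both groups, with a chi-square per degree of freedom of 18.2 to 22.0 against the other libraries of its group, where replicates 2 and 3 differed from each other by 2.19 (IgG IP) and 3.25 (IGF2BP3 IP). Defining MCC markers were abundant, with summed normalized CPM of 5058 to 5360 in the IgG IP and 5036 to 5267 in the IGF2BP3 IP for *KRT20*, *ATOH1*, *SOX2*, *INSM1*, *ISL1*, *CHGA*, *SYP*, *ENO2*, *POU4F3* and *NEUROD1*. Of these 10, *NEUROD1* alone was near 0, with 0 to 2 counts. The leukocyte genes *PTPRC* and *CD3E* were at 0 in all 6 libraries, and the endothelial list summed to at most 0.807 CPM. Among fibroblast genes *COL1A1*, *COL1A2*, *LUM* and *PDGFRB* had 0 to 2 counts per library, and *DCN* had 479 to 762.

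*PROSER1* was the member that stood out in the IGF2BP3 IP. Its normalized CPM (counts scaled to library size with TMM factors) were 53.3, 60.6 and 64.0 in the IgG IP libraries 1 to 3 and 124.5, 122.1 and 121.3 in the IGF2BP3 IP libraries 1 to 3. All IGF2BP3 IP libraries lay above all IgG IP libraries, and the IGF2BP3 IP libraries lay closer together than the IgG IP libraries. The means were 123 ± 1.68 (SD, n = 3) and 59.3 ± 5.47 (SD, n = 3). This was a 2.06-fold difference, or 1.05 ± 0.09 (standard error) as a fitted log2 fold change, with a 95% confidence interval of 0.84 to 1.25. Within same-numbered pairs of libraries the log2 differences were 1.22, 1.01 and 0.92. These values rested on 492 to 1616 counts per library.

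Of the 10 mRNAs, all 10 passed the expression filter and 1, *PROSER1*, was past the thresholds. These were 1.5-fold or more and an adjusted p-value (Benjamini-Hochberg) below 0.05 in edgeR's quasi-likelihood test over 14507 genes. Over all tested genes the share past these thresholds was 1.16% (169 genes), and since *PROSER1* was chosen for this value nothing is read from the count. *PROSER1* was likewise the 1 member called by DESeq2, where 2.22% of tested genes were called higher, with the replicate block (3.56%) and with a GC correction (0.559%), and the 1 member with a fitted fold change of at least 1.5, which 5.30% of tested genes reached. No member was past the thresholds on the lower side, where edgeR called 0 genes of the table (59 at least 1.5-fold lower at an unadjusted p-value under 0.05, and 0 past the thresholds in DESeq2). By size of fold change *PROSER1* ranked 102 of the tested genes, and 0.703% of them had a log2 fold change at least as high. Among the 169 called genes, 38 had a larger one. The call was absent without IGF2BP3 IP replicate 2, where no gene of the table passed and the log2 fold change of *PROSER1* was 1.04, and it was absent with limma-trend on log2(TPM + 1), where again no gene passed and the value was 0.85. On the TPM scale the median of all tested genes shifted by 0.11, so that *PROSER1* lay 0.74 above it.

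**Figure D1:**
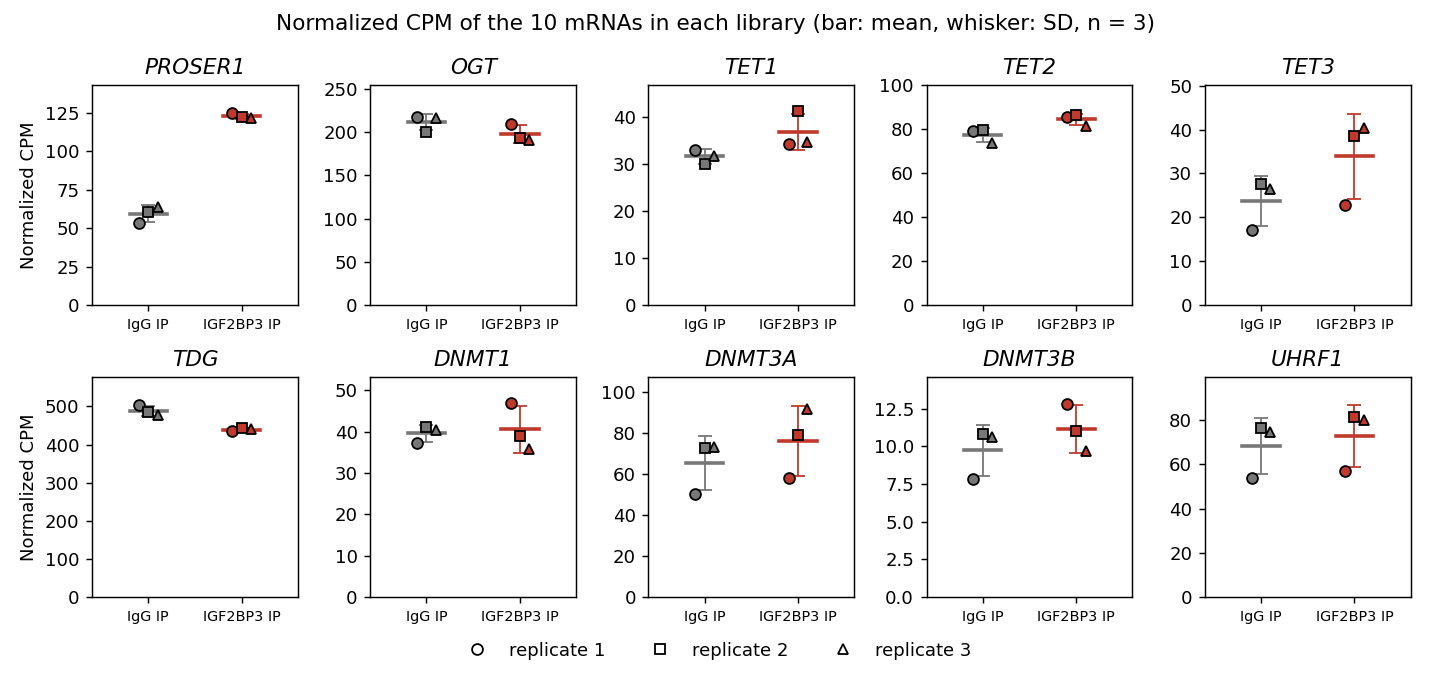
Normalized CPM (vertical axis, linear from 0) of the 10 mRNAs in the 3 IgG IP libraries (grey) and the 3 IGF2BP3 IP libraries (red), with marker shapes for replicates 1 to 3, a bar for the mean and a whisker for the SD. *PROSER1* lay between 53.3 and 64.0 in the IgG IP and between 121.3 and 124.5 in the IGF2BP3 IP, while the groups of *OGT*, *TET3*, *DNMT1*, *DNMT3A*, *DNMT3B* and *UHRF1* overlapped.

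The gene *PROSER1* (ENSG00000120685.20) occupies the minus strand of chromosome 13 between 39009865 and 39038089 in GRCh38, and its canonical transcript in GENCODE version 44 has 13 exons and 5182 bases, of which 2832 are coding. No annotated gene overlaps it. The gene *NHLRC3* starts 217 bases away on the opposite strand. The normalized CPM of *NHLRC3* were 32.4 ± 1.12 (SD, n = 3) in the IgG IP and 26.6 ± 3.44 (SD, n = 3) in the IGF2BP3 IP, with a log2 fold change of -0.29 (95% confidence interval -0.56 to -0.01). No IGF2BP3 IP library of *NHLRC3* reached the lowest IgG IP library, and the gene did not pass the thresholds (adjusted p = 0.36, edgeR quasi-likelihood test).

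Short RNA words were counted on the sense strand of the canonical transcripts of 14479 tested genes, to show what the *PROSER1* transcript offers to an IGF2BP protein. The words were CATA, CATC and CATT, which together spell the CAUH element described for the IGF2BP family, ACACA as a CA-rich word, and GGAC, the core of the m6A consensus that IGF2BP proteins are known to read. The CATA, CATC and CATT words can overlap each other and ACACA by their end letters, and ACACA words can overlap one another within a CA repeat. *PROSER1* had 73 CAUH words, 55 of them in the coding sequence, or 14.1 per kb. Of the tested transcripts, 15.8% had as high a density, and the median was 10.8 per kb. It had 2 ACACA words, a density that 79.6% of the transcripts reached, and 8 GGAC words, a density that 90.7% reached. The 30-base window with the most CAUH and ACACA words, shown with those words in capitals, held 3 words and was in the coding sequence. A window with at least 3 was found in 66.8% of the transcripts. For comparison, the corresponding windows of *TET2*, with 4 words in its coding sequence, and of *DNMT3A*, with a CA repeat in its 3' untranslated region, are given. Neither of these 2 mRNAs was past the thresholds.
PROSER1, chr13:39014359-39014388, minus strand: agtcaaggcaattaatCATCCATCagCATC
TET2, chr4:105275774-105275803, plus strand: aaCATCATTcaccttctcaCATAatcCATA
DNMT3A, chr2:25231948-25231977, minus strand: gCATAatgaatgcactcACACACACACACA

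A window with at least the 4 words of *TET2* occurred in 23.8% of the transcripts, and one with the 6 words of *DNMT3A* in 4.07%. The words of *DNMT3A* include overlapping ACACA words of its CA repeat and are not 6 separate sites. By density of CAUH words, *PROSER1* came first among the members, followed by *TET2* at 13.3, *TET1* at 13.1, *TDG* at 12.6 and *OGT* at 11.4 per kb. *TET3*, *DNMT1*, *DNMT3B*, *UHRF1* and *DNMT3A* had between 7.96 and 9.37. The order of the members by word density differed from their order by fold change. The part of these words in the recovery of an mRNA was not tested. Across the 14479 genes, which are not independent replicates, the Spearman correlation of the log2 fold change with CAUH density was -0.15, with ACACA density 0.03, with GGAC density 0.30 and with transcript GC content 0.41. The GC content of *PROSER1* was 46.0%, under the median of 47.7%, and a per-library correction for GC content left its log2 fold change at 1.04 and past the thresholds.

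The 3 tested genes whose log2 CPM followed *PROSER1* most closely over the 6 libraries were *MXD4* (Pearson's r = 0.998), *SLC3A2* (0.998) and *AP1M1* (0.997). They were picked as the highest of all tested genes over 6 points that fall into the same 2 groups, so these values are descriptive. Their log2 fold changes were 0.64, 0.31 and 0.60, each smaller than that of *PROSER1*. *MXD4* encodes a MAX-binding repressor, *SLC3A2* the heavy chain of amino acid transporters and *AP1M1* a clathrin adaptor subunit.

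**Figure D2:**
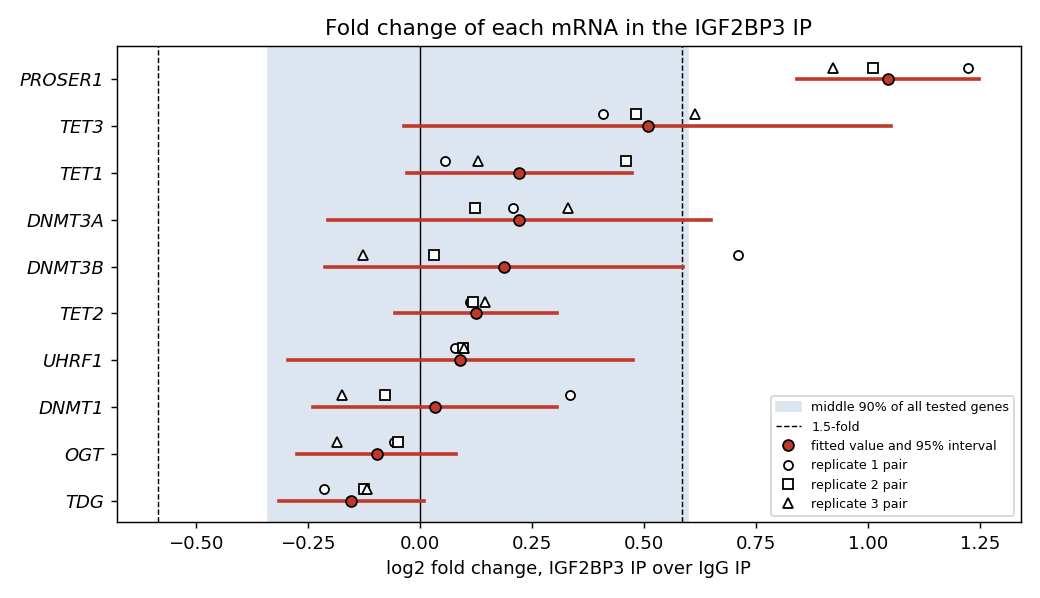
Fitted log2 fold change of each mRNA, IGF2BP3 IP over IgG IP (horizontal axis), with its 95% confidence interval (red), the difference within each same-numbered pair of libraries (open symbols), the middle 90% of all tested genes (shaded) and 1.5-fold limits (dashed). *PROSER1* at 1.05 lay outside the shaded range, and the intervals of the 9 other members, from the fit without a replicate block, included 0.

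*OGT*, whose product works with PROSER1, did not share its pattern. Its normalized CPM were 217.9, 200.5 and 216.7 in the IgG IP libraries 1 to 3 and 209.5, 193.8 and 190.6 in the IGF2BP3 IP libraries 1 to 3. The groups overlapped, and the log2 fold change was -0.10 (95% confidence interval -0.27 to 0.08), an interval that excludes a 1.5-fold difference in either direction. *OGT* (ENSG00000147162.14) lies on chromosome X from 71533087 to 71575892 on the plus strand and had 2010 to 2992 counts per library. With TPM values its log2 fold change was 0.11, close to the shift of all genes.

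The 3 TET mRNAs had positive fold changes of unequal size, and none was past the thresholds. *TET2* (chromosome 4, 105145875 to 105279816, plus strand), the TET enzyme that PROSER1 binds, had 79.0, 79.7 and 73.7 CPM in the IgG IP and 85.5, 86.5 and 81.5 CPM in the IGF2BP3 IP, so that the groups did not overlap. The difference was small, a log2 fold change of 0.13 (95% confidence interval -0.05 to 0.31). *TET1* (chromosome 10, 68560337 to 68694487, plus strand), the CXXC-domain enzyme prominent in stem cells, had 33.0, 30.0 and 31.7 CPM against 34.3, 41.2 and 34.7 CPM, again without overlap. Its log2 fold change was 0.22 (95% confidence interval -0.03 to 0.47), and the pair of replicate 2, at 0.46, exceeded the pairs of replicates 1 and 3, at 0.06 and 0.13.

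*TET3* (chromosome 2, 73984910 to 74108176, plus strand), best known for oxidizing methylcytosine in the zygote, had the largest log2 fold change after *PROSER1*. The IgG IP libraries gave 17.1, 27.6 and 26.4 CPM, and the IGF2BP3 IP libraries 22.8, 38.6 and 40.4 CPM. The groups overlapped because replicate 1 was low in both, yet within pairs the IGF2BP3 IP library was higher in 3 of 3, by 0.41, 0.48 and 0.62 on the log2 scale. The log2 fold change was 0.51 (95% confidence interval -0.04 to 1.05), under the 1.5-fold minimum of 0.58. With the replicate number as a block the value was again 0.51 with an interval of 0.33 to 0.70. The estimate ran from 0.33 without IgG IP replicate 1 to 0.72 without IGF2BP3 IP replicate 1, and was 0.55 without both replicate 1 libraries and 0.41 with the GC correction, where its transcript has a GC content of 53.2%. The sample titles give replicate numbers but state no pairing. Across genes, same-numbered libraries deviated together with r = 0.57 for replicate 1. For replicates 2 and 3 the values were 0.28 and 0.23, and crossed numbers gave 0.28 and 0.27.

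*TDG* (chromosome 12, 103965822 to 103988874, plus strand), the glycosylase that follows the TET enzymes, was lower in the IGF2BP3 IP libraries. The IgG IP libraries gave 504.0, 484.8 and 477.2 CPM, and the IGF2BP3 IP libraries 434.5, 444.6 and 439.7 CPM. The groups did not overlap, but the difference was small, with a log2 fold change of -0.15 (95% confidence interval -0.31 to 0.01), and it did not pass the thresholds. With TPM values it was 0.03, where the median of all genes was 0.11. The pseudogene *TDGP1* held 8 to 13 counts per library, against 4650 to 7235 on *TDG*. A long noncoding RNA gene that shares 168 exonic bases with *TDG* was not analysed here. Over the 10 mRNAs, 3 had all IGF2BP3 IP libraries above the highest IgG IP library (*PROSER1*, *TET1* and *TET2*), against 12.0% of all tested genes, and 1 had the opposite order (*TDG*), against 8.69% of all tested genes. The rule used this contrast, so nothing is read from these counts.

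The methyltransferases and UHRF1 differed little between the antibodies. *DNMT1* (chromosome 19, 10133342 to 10231286, minus strand), the maintenance enzyme, had 37.3, 41.1 and 40.4 CPM in the IgG IP and 47.0, 38.9 and 35.8 CPM in the IGF2BP3 IP. Its groups overlapped and its log2 fold change was 0.03 (95% confidence interval -0.24 to 0.31). *DNMT1* shares 83 exonic bases with *S1PR2*, a sphingosine receptor gene on the same strand, which was at 0.90 (adjusted p = 0.081, edgeR quasi-likelihood test) on 35 to 105 counts per library.

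*DNMT3A* (chromosome 2, 25227855 to 25342590, minus strand), a de novo enzyme, had 50.2, 72.7 and 73.2 CPM in the IgG IP and 58.0, 79.2 and 92.0 CPM in the IGF2BP3 IP, with overlapping groups. The log2 fold change was 0.22 (95% confidence interval -0.21 to 0.65), and the 3 pairs gave 0.21, 0.12 and 0.33. Leaving out one library gave values from 0.05 without IGF2BP3 IP replicate 3 and 0.07 without IgG IP replicate 1 to 0.38 without IGF2BP3 IP replicate 1, while without both replicate 1 libraries the value was 0.23. *DNMT3B* (chromosome 20, 32762385 to 32809359, plus strand), the other de novo enzyme, was the least covered member, with 72 to 161 counts per library. Its log2 fold change of 0.19 had a 95% confidence interval of -0.21 to 0.59, and its pairs gave 0.71, 0.03 and -0.13, so the replicate 1 pair carried the difference and without both replicate 1 libraries the value was -0.04. In the fit without a replicate block the intervals of *DNMT3A*, *DNMT3B* and *TET3* reached past a 1.5-fold increase, and with the block those of *DNMT3A* (0.08 to 0.36) and *DNMT3B* (-0.13 to 0.48) did not.

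*UHRF1* (chromosome 19, 4903080 to 4962154, plus strand), the reader of hemimethylated DNA, had 53.9, 76.3 and 74.8 CPM in the IgG IP and 56.9, 81.6 and 80.1 CPM in the IGF2BP3 IP. Its log2 fold change was 0.09 (95% confidence interval -0.29 to 0.47), and the 3 pairs were nearly alike at 0.08, 0.10 and 0.10. The spread of *UHRF1* lay between replicates and not between antibodies. With the GC correction its value was -0.04, and that of *DNMT1* was -0.09.

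*TET3*, *DNMT3A* and *UHRF1* shared a second pattern that the selection did not use, a low level in replicate 1 with either antibody. Against the mean of replicates 2 and 3 on the log2 scale, replicate 1 of *TET3* differed by -0.66 in the IgG IP and -0.80 in the IGF2BP3 IP. For *DNMT3A* the differences were -0.54 and -0.56, and for *UHRF1* -0.49 and -0.51. Of the tested genes 6.61% were at least 0.4 lower in replicate 1 in both groups. *DNMT3B* differed by -0.45 in the IgG IP and by 0.31 in the IGF2BP3 IP, and *OGT*, *TET2* and *TDG* by at most 0.12 in either direction. The GC contents of *TET3*, *DNMT3A* and *UHRF1* were 53.2%, 53.7% and 55.7%. Those of *DNMT1* and *DNMT3B*, which were not low in replicate 1 with both antibodies, were 54.9% and 53.9%. Replicate 1 of *DNMT1* differed by -0.13 in the IgG IP and by 0.33 in the IGF2BP3 IP. Across tested genes the Spearman correlation of the replicate 1 difference with GC content was -0.14 in the IgG IP and 0.01 in the IGF2BP3 IP. The part of GC content in the low replicate 1 values was not tested.

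Over the 10 mRNAs, 8 had a log2 fold change above 0, where 48.9% of all tested genes did, and the median was 0.16, against -0.01 over all tested genes. Without *PROSER1* the median was 0.13. With the GC correction *DNMT1* and *UHRF1*, at 0.03 and 0.09 in the reported fit, were at -0.09 and -0.04. The rule used this contrast, so nothing is read from the count or the medians. In the fit without a replicate block, the 95% confidence intervals of 6 members lay within 1.5-fold in both directions and those of 9 included 0. With the block the intervals were narrower and no longer included 0 for *TET1* (0.04 to 0.41), *TET3* (0.33 to 0.70), *DNMT3A* (0.08 to 0.36) and *TDG* (-0.26 to -0.04), whose fold changes stayed under the 1.5-fold minimum. These intervals are not adjusted for the number of genes. In edgeR with the block the adjusted p was 0.0912 for *TET1* and 0.0502 for *TDG*, and 0.000226 for *TET3* and 0.03 for *DNMT3A*. The share of such intervals over all tested genes was not computed, so nothing is read from their number. Members other than *PROSER1* were not past the thresholds in any alternative. Values under every setting are shown in the plot of fold changes by setting.

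**Figure D3:**
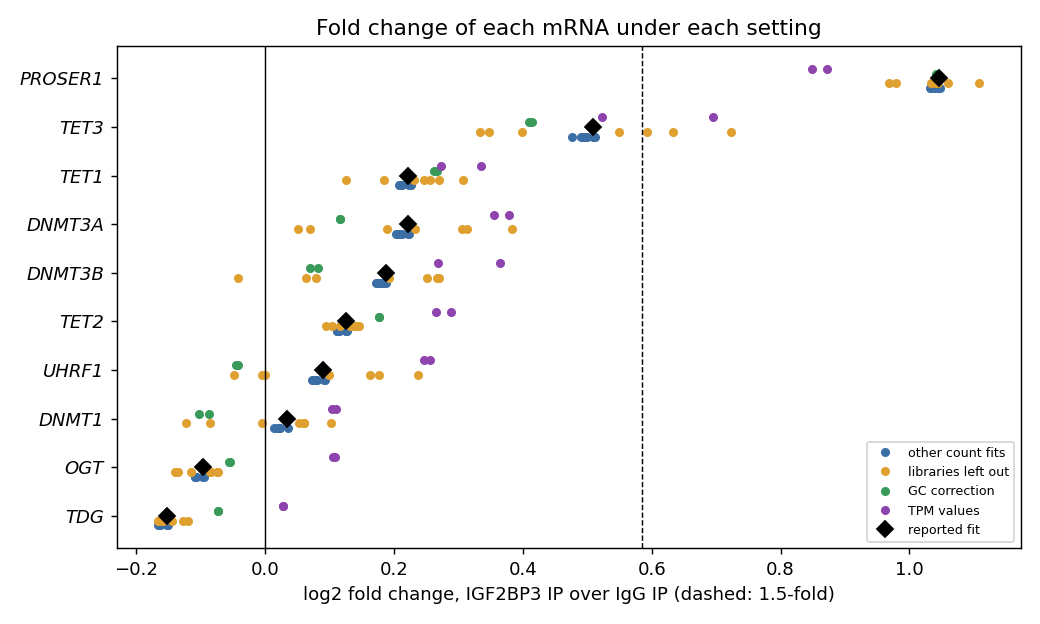
Log2 fold change of each mRNA, IGF2BP3 IP over IgG IP (horizontal axis), in the reported fit (black diamonds) and in each alternative, grouped by colour into other fits of the counts, libraries left out, the GC correction and TPM values. *PROSER1* lay between 0.85 and 1.11 in every setting, past the dashed 1.5-fold line, and *OGT*, *TDG*, *DNMT1*, *DNMT3B* and *UHRF1* had values on both sides of 0.

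The levels of the 10 mRNAs within a group were compared as TPM, which is scaled per transcript length. In the IgG IP *TDG* was the most abundant, with 205 ± 34.3 TPM (SD, n = 3), followed by *OGT* with 47.5 ± 8.39, *PROSER1* with 24.6 ± 3.82, *UHRF1* with 23.9 ± 7.73 and *DNMT1* with 20.5 ± 3.55. The libraries of *PROSER1*, *UHRF1* and *DNMT1* overlapped in range from one neighbour to the next, so their order is not separated by the spread. Lower levels were found for *DNMT3A* with 11.6 ± 3.60 TPM and *TET2* with 9.63 ± 1.88, whose ranges overlapped. *TET1* with 3.42 ± 0.63, *DNMT3B* with 2.58 ± 0.81 and *TET3* with 2.14 ± 0.83 TPM were lowest and overlapped as neighbours. TPM of replicate 1 was the lowest of the 3 IgG IP libraries for all 10 mRNAs. The share over all genes was not computed, so this is not read as a trait of the members. By normalized CPM replicate 1 was not the lowest IgG IP library for *OGT*, *TET1*, *TET2* and *TDG*, and it was for the other members.

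In the IGF2BP3 IP the order was alike except at the bottom, where *TET3* with 3.59 ± 1.52 TPM (SD, n = 3) stood before *DNMT3B* with 3.24 ± 0.30. *PROSER1*, at 46.04, 47.59 and 40.63 TPM in replicates 1 to 3, came within the range of *OGT*, at 46.68, 55.33 and 50.10. In the IgG IP the ranges of these 2 mRNAs did not overlap. With CPM per kb of canonical transcript in place of TPM, *UHRF1* ranked above *PROSER1* in the IgG IP, and *TET2* ranked above *DNMT3A* and *DNMT1* in both groups. By mean CPM per kb *PROSER1* stayed below *OGT*, at 23.7 against 36.4 in the IGF2BP3 IP and 11.4 against 39.0 in the IgG IP.

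**Figure D4:**
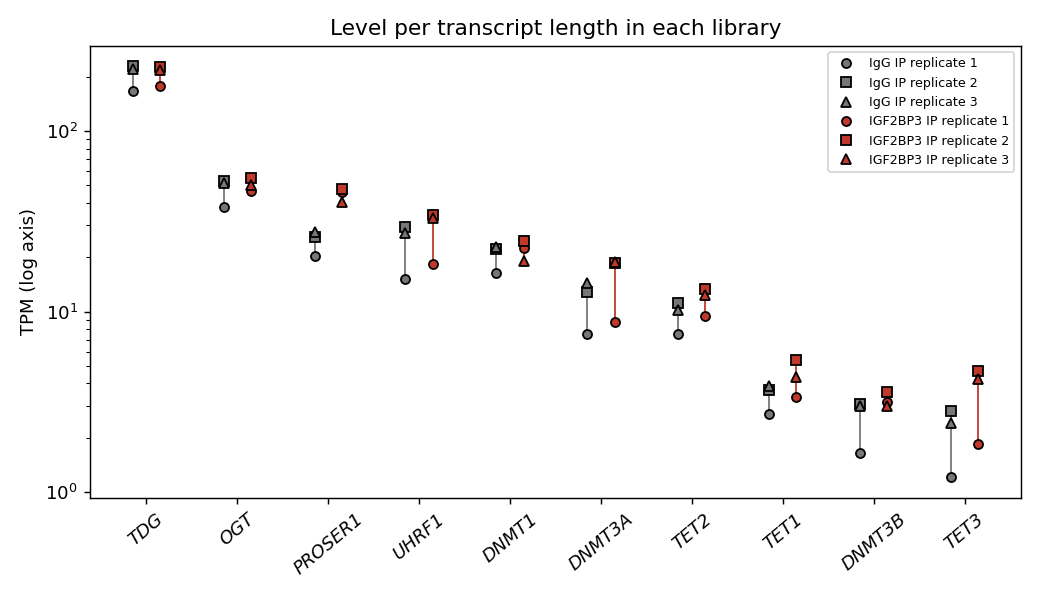
TPM of the 10 mRNAs (vertical log axis) in each IgG IP library (grey) and each IGF2BP3 IP library (red), ordered by their mean in the IgG IP, with vertical lines for the range. *TDG* was highest in every library, and on the TPM scale *PROSER1* reached the range of *OGT* in the IGF2BP3 IP, with 40.63 to 47.59 TPM against 46.68 to 55.33.

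As shares of TPM, the composition within the enzyme families was led by the same members with either antibody. *TET2* made up 65.8%, 63.2% and 62.0% of the summed TET TPM in the IgG IP libraries and 64.6%, 56.9% and 59.1% in the IGF2BP3 IP libraries. The share of *TET3* was 10.6%, 15.9% and 14.6% with IgG against 12.6%, 19.9% and 20.3% with the IGF2BP3 antibody, higher in 3 of 3 same-numbered pairs with overlapping groups. *DNMT1* held 56.8% to 64.3% of the summed DNMT TPM in the IgG IP and 46.4% to 65.4% in the IGF2BP3 IP. The shares of *DNMT3A* were 29.3% to 35.7% and 25.4% to 46.2%, with replicate 1 lowest in both groups. In IGF2BP3 IP replicate 3 *DNMT1* and *DNMT3A* were nearly equal, at 46.4% and 46.2%. By mean CPM per kb *DNMT3A* was above *DNMT1* in the IGF2BP3 IP (8.11 against 7.70) and below it in the IgG IP (6.94 against 7.51). *DNMT3B* made up at most 9.16% in any library.

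Other genes, of DNA methylation and of the MLL3/MLL4-UTX histone methyltransferase complex, were taken as 6 lists with 66 genes, of which 61 were tested. In edgeR's quasi-likelihood test over all genes, 1 of the 61 was past the thresholds, *NCOA6*, a share of 1.64% against 1.16% of all tested genes. None was lower past the thresholds (2 at an unadjusted p-value under 0.05 in edgeR, 0 past the thresholds in DESeq2). The median log2 fold change of the 61 was close to 0, as was that of all tested genes. In 9 of them (14.8%) all IGF2BP3 IP libraries exceeded the highest IgG IP library, against 12.0% of all tested genes, and in 3 all lay below the lowest, against 8.69% of all tested genes. The lists were chosen with earlier results of these data known, so nothing is read from these counts. A link between the called gene and *PROSER1* was not tested.

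The called gene belongs to the MLL3/MLL4-UTX complex, a histone H3 lysine 4 methyltransferase of enhancers with which PROSER1 has been found. *NCOA6*, a nuclear receptor coactivator of this complex, had 27.7 ± 1.56 CPM (SD, n = 3) in the IgG IP and 50.9 ± 6.60 (SD, n = 3) in the IGF2BP3 IP. The groups did not overlap, and the log2 fold change was 0.88 ± 0.12 (standard error), with an adjusted p of 0.015 in edgeR's quasi-likelihood test. The call was lost without IgG IP replicate 2 (adjusted p = 0.073, edgeR) or 3 (0.091), without IGF2BP3 IP replicate 2 (0.095) or 3 (0.092), and with limma-trend on log2(TPM + 1) (0.62), at log2 fold changes of 0.77 to 0.93. Of the 10 subunits tested, 1 was called. The methyltransferases *KMT2D* and *KMT2C* had log2 fold changes of 0.68 (adjusted p = 0.29) and 0.31 (adjusted p = 0.15) in the same edgeR test, and the demethylase gene *KDM6A*, which encodes UTX, differed by less than 0.01. With the replicate block, and likewise without the expression filter, *KMT2D* passed the thresholds (adjusted p = 4.35e-05 and 0.0026, edgeR), as it did without IGF2BP3 IP replicate 1 (0.029) and without both replicate 1 libraries (2e-05). With the GC correction and the block together *KMT2D* was at 0.49, under the fold minimum, and was not called.

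Among the O-GlcNAc genes and TET cofactors, 0 of 12 were past the thresholds. *HCFC1*, a chromatin regulator that OGT cleaves and modifies, had the largest value, 0.63 (adjusted p = 0.28, edgeR quasi-likelihood test), and passed with the replicate block (5.7e-07) and without the expression filter (8.9e-06). Its log2 fold change was 0.40 without IgG IP replicate 1, 0.43 after correction for GC content and 0.45 when the block was added to that correction, all under the fold minimum. *IDH2*, which makes the TET cosubstrate 2-oxoglutarate, and *SIN3A*, a corepressor that binds TET1 and OGT, were at 0.33 and 0.32 (adjusted p = 0.21 for both, same test), and with the GC correction *IDH2* was at 0.20. The hydrolase gene *OGA*, which opposes OGT, was at -0.17.

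In base excision repair, 0 of 13 tested genes were past the thresholds. *LIG3*, the ligase that acts with XRCC1, had a log2 fold change of 0.52 with an adjusted p of 0.037 (edgeR quasi-likelihood test), under the 1.5-fold minimum. *NEIL2* and *NEIL1*, glycosylases that can act beside TDG, were at 0.45 and -0.44 on 5 to 15 and 22 to 42 counts per library. *GADD45B* had 0 counts in all 6 libraries. Its TPM values are not given here, so this is not read as absence of the RNA. Among the partners of the methyltransferases, 0 of 10 tested were past the thresholds. The corepressor gene *TRIM28* was at 0.54 on the log2 scale (adjusted p = 0.041, edgeR), also under the fold minimum, and the ligase gene *LIG1* and the methyltransferase gene *EHMT2* were at 0.20 and 0.18. With the GC correction *TRIM28* was at 0.32 (adjusted p = 0.24, edgeR), *LIG1* at 0.0024 and *EHMT2* at -0.023. Without IgG IP replicate 2 or 3, or IGF2BP3 IP replicate 2 or 3, the adjusted p in edgeR was 0.13 to 0.25 for *TRIM28* and 0.13 to 0.21 for *LIG3*.

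None of the 8 methyl-CpG readers was past the thresholds. Among them, *MBD3* and *ZBTB4* had log2 fold changes of 0.25 and 0.22, and with the GC correction they were at 0.03 and 0.05. None of the 8 genes of the methyl donor cycle, which supplies S-adenosylmethionine, was past them either, and *MAT2B* and *MTRR* were at -0.21 and 0.16.

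**Figure D5:**
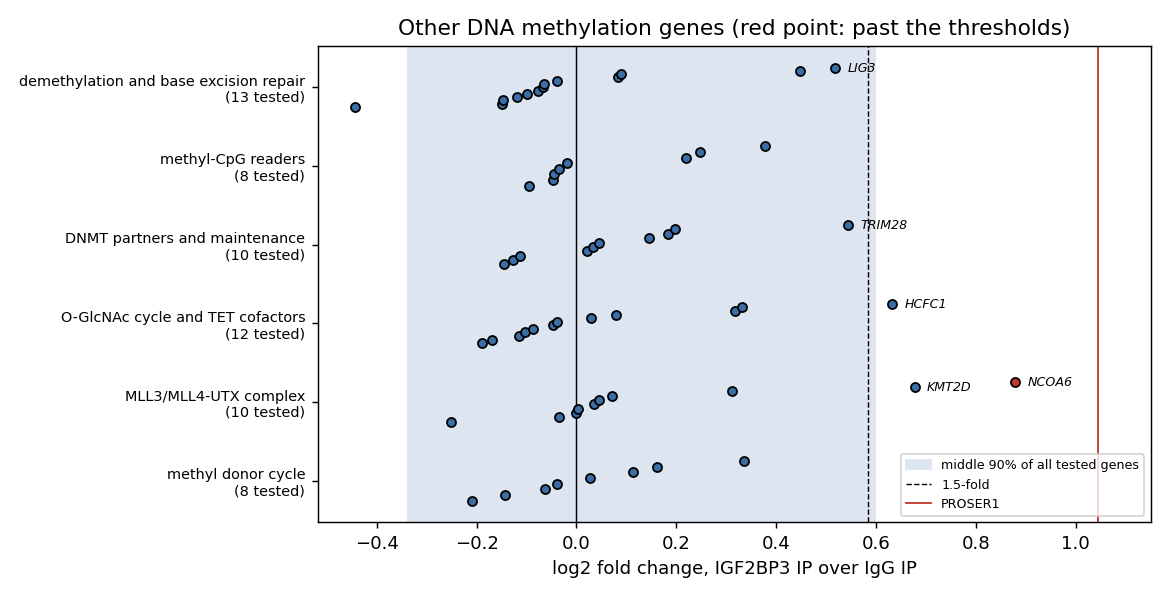
Log2 fold change (horizontal axis), IGF2BP3 IP over IgG IP, of the 61 tested genes of 6 lists of DNA methylation genes and MLL3/MLL4-UTX complex genes, with *PROSER1* as a red line, 1.5-fold as a dashed line and the middle 90% of all tested genes shaded. *NCOA6* at 0.88, the only red point, was past the thresholds, and *KMT2D* and *HCFC1* exceeded the 1.5-fold line without passing.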

How the data were processed

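RIP-seq of WaGa cells comprised 6 libraries, with groups and replicate numbers taken from the sample titles. The authors aligned reads to GRCh38 with STAR 2.7.9a and used RSEM with GENCODE version 37. The deposited gene table holds whole, unnormalized read counts, whose counting program and use of strand are not given in the sources used here. The deposited TPM and the deposited FPKM values are RSEM estimates. Low counts were removed with filterByExpr, and the remaining genes were scaled with TMM and tested with edgeR 4.0.16 (R 4.3.3, quasi-likelihood test, condition as the only term). Standard errors are the log2 fold change divided by the root of F. DESeq2 1.42.0, the test of the study's methods, was an alternative.

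The other alternatives were RLE factors, filters of 1 count in all or 10 counts in each library, voom and trend fits of limma 3.58.1 (the latter on log2 TPM with a pseudocount of 1 or 0.1), a block for the replicate number with both edgeR and DESeq2, a per-library loess correction for transcript GC content (span 0.5) over 14479 genes, and each library left out. Leaving out both replicate 1 libraries was added after seeing the data. Same-numbered libraries deviated together from their group means (r = 0.57, 0.28 and 0.23 across genes for replicates 1 to 3), though replicates 2 and 3 crossed at 0.28 and 0.27. The fits were checked on simulated data.

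Members and gene lists were chosen with earlier results of these data known. Named are the members, per list the genes past the thresholds and the 3 largest absolute log2 fold changes, overlapping or adjoining genes, the 3 genes most correlated with *PROSER1*, and markers; *KDM6A* and *OGA* were added after their values were seen. Some genes that this rule names are not reported here. Coordinates and sequences are from GENCODE version 44 on GRCh38, which held 60481 of 60655 gene identifiers. Counts without molecular identifiers limit the precision to counting error and replicate spread. With 3 libraries against 3, an exact two-sided permutation test cannot go below p = 0.10, so none was run. The p-values measure the spread between these libraries, since the labels do not say whether they came from separate cultures. The marker lists for keratinocytes and endothelium summed to at most 16.9 and 0.807 CPM, and leukocytes to 0.302.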

Additional observations from a re-analysis of the deposited data

How the results depend on the processing

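Against 169 genes past the thresholds, DESeq2 gave 281, no filter beyond 1 count 360, the replicate block 532 in edgeR and 322 in DESeq2, the GC correction 81, the GC correction with the replicate block 306, and the fit without both replicate 1 libraries (chosen after seeing the data) 474. limma-trend on log2(TPM + 1) and log2(TPM + 0.1) gave 0 and 0, where 476 and 617 genes had an unadjusted p-value below 0.05 and were 1.5-fold or more higher. Leaving out one library gave 0 to 244, with 0 in the edgeR fit lacking IGF2BP3 IP replicate 2 (by unadjusted p-value below 0.05 and 1.5-fold, 473 were higher and 62 lower), 7 and 19 without IgG IP replicates 3 and 2, and 23 without IGF2BP3 IP replicate 3. The number of members called was 1, and it was 0 and 0 with limma-trend and 0 to 1 with one library left out, the 0 being that without IGF2BP3 IP replicate 2. The replicate block changed no member's call. The number of pathway list genes called was 1, against 3 without a filter, 3 and 3 with the replicate block in edgeR and DESeq2, 0 and 0 with limma-trend, 2 without both replicate 1 libraries, and 0 to 2 with one library left out.

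*PROSER1* kept its direction in all 18 alternatives and its call in 15. Members with log2 fold changes near 0 changed sign without a call. With limma-trend *OGT* was at 0.11 and 0.11 and *TDG* at 0.028 and 0.028. With the GC correction, without and with the replicate block, *DNMT1* was at -0.087 and -0.10, *UHRF1* at -0.044 and -0.042, and the list gene *EHMT2* at -0.023 and -0.022. Leaving out one library gave -0.085 to 0.10 for *DNMT1* and -0.049 to 0.24 for *UHRF1*. Without both replicate 1 libraries *DNMT1* was at -0.12 and *DNMT3B* at -0.042. The cause of these changes was not tested. *DNMT3B* had the fewest counts of the members, 72 to 161 per library.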
